A study of Mus musculus with 5 samples.

Results

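7SK RNA and the Y RNAs Y1 and Y3 are short noncoding transcripts of RNA polymerase III (Pol III). They were listed in the melRNA-seq tables as scRNA_nuclear(Rn7sk), scRNA_Y1 and scRNA_Y3. The members were chosen by name only, as every row that contains Rn7sk and the rows for Y1 and Y3. These are 3 of the 1038 names that had a read in any of the 5 libraries. The 3 testis libraries list all 3 members, whereas the 2 spermatogonia libraries list only Y1 and Y3.

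melRNA-seq reads RNAs of medium length from end to end after an adaptor is ligated to each end. Whole testis RNA of C57BL/6J mice, which the study's supplement places at postnatal day 7, was used in portions of 600 ng. Portions were left untreated, treated with TAP, or treated with 20 U of 5' polyphosphatase for 30 min. TAP was used at 25 U for 1.5 h, and the labels spell it out as tobacco alkaline phosphatase. There was 1 library for each treatment. Spermatogonia, the mitotic germ cells, were sorted by FACS from mice of the same strain and age, and their RNA was treated with RppH in 2 replicates. No transgene or mutation is named for any group. The tables hold repeats and small RNAs but no protein-coding marker genes, so the tissue and cell type labels could not be checked against markers.

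The 5' end decides whether an RNA is read. The adaptor joins only to a 5' monophosphate, which 5.8S rRNA carries because it is cut out of a longer precursor. A transcript that keeps the triphosphate of its first nucleotide, such as 5S rRNA, is not ligated until the triphosphate is opened. TAP opens both triphosphates and caps, whereas 5' polyphosphatase acts on triphosphates. 7SK is the scaffold of a nuclear particle that holds the elongation factor P-TEFb inactive, and its 5' triphosphate is known to be methylated on the outermost phosphate by the enzyme MEPCE. The Y RNAs are bound by the proteins Ro60 and La, form a stem from their 5' and 3' ends, and are known for roles in RNA quality control and in DNA replication.

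The annotated sequences of the Y RNAs are shown because Y1 and Y3 reads differed in their ratios between the enzyme libraries. They are GENCODE M21 transcripts on mouse build GRCm38. Rny1 lies at chr6:47788069-47788180 on the minus strand and Rny3 at chr6:47781624-47781725 on the plus strand, 6343 bp apart. Both have 1 exon and overlap no other annotated gene. In the lines below, written 5' to 3', capitals mark the bases that are identical between both RNAs in a global alignment.
Y1: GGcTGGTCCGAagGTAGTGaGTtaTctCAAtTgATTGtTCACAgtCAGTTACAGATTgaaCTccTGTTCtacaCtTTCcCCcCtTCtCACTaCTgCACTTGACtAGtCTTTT
Y3: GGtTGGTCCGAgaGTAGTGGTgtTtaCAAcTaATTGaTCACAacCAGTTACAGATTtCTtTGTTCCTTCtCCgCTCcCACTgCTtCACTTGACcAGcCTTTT

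Y1 and Y3 shared 81 of 112 aligned positions (72.3%), with 19 of the 25 positions at the 5' end, 21 of the 25 at the 3' end and 41 of the 62 in between. Both begin with GG and end in 4 T, the letters of a Pol III terminator, on the transcript strand. Of the 3861 small noncoding RNA genes in the annotation, 494 (12.8%) end in 4 T. In a search among these genes with blastn, 2 others matched Rny1 over at least 90% of its length with at least 90% identity and none matched Rny3 that closely. Of 248 genes that matched Rn7sk, 3 did so over at least 90% of its length, with at most 89.2% identity, and 11 matched it at 90% identity or more over at least 115 nt, the shortest selected insert. Reads of such copies could have been counted under scRNA_Y1 or scRNA_nuclear(Rn7sk).

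7SK is encoded by Rn7sk at chr9:78175303-78175633 on the minus strand, a gene of 1 exon that overlaps no other annotated gene and lies 3196 bp from Ick, the nearest protein-coding gene. Its bases 1 to 255 are shown because they span the inserts that could begin at its annotated 5' end, and capitals mark the shortest selected insert, bases 1 to 115.
7SK: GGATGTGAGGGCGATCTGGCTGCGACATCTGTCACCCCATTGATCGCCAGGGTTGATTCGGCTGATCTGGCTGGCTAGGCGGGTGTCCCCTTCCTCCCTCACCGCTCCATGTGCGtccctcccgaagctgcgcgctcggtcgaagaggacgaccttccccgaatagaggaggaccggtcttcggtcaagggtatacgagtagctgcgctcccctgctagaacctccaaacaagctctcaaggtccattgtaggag

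The labels give inserts of 115 to 255 nt for all 5 libraries, for spermatogonia also in a label of their own, whereas the study's methods state the range for testis only. None of the 3 members has an annotated length in that range. Y3 is 102 nt long, 13 nt short of the shortest selected insert, and Y1 is 112 nt long, 3 nt short of it. 7SK is 331 nt long, which is 76 nt over the longest selected insert. The 5S rRNA reference is 121 nt long in each of its 25 curated RefSeq genes and fits. By the study's methods the single-end reads were shorter than 331 nt, and reads without the 3' adaptor were dropped. A whole 7SK molecule could therefore not give a kept read, and the 7SK reads come from shorter inserts. The deposited counts carry no read lengths. Whether these inserts are pieces of 7SK or reads of its copies, and how sharply the gel cut at the lower limit, was not tested.

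**Figure D1:**
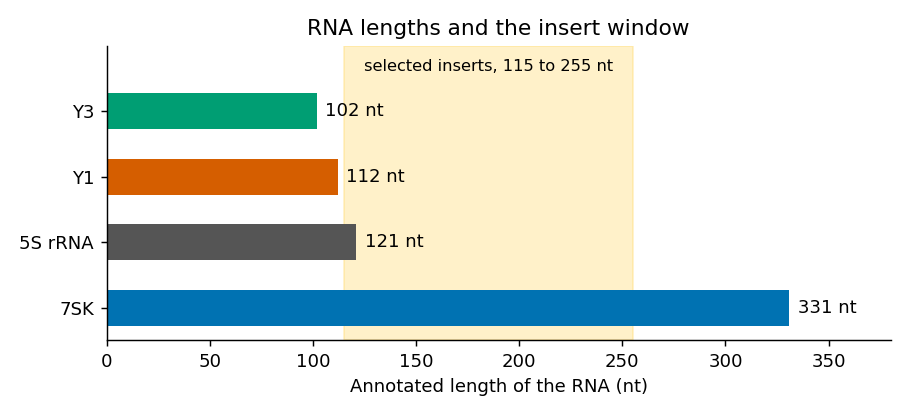
Annotated length in nt of Y3, Y1, 5S rRNA and 7SK (bars), with the insert range of 115 to 255 nt that was selected on the gel shaded. Only the bar of 5S rRNA, at 121 nt, ends inside the shaded range.

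Between 1067851 and 3166394 reads per library were listed under a name, of which 5.8S rRNA took 27.2% in the untreated, 50.2% in the TAP and 19.2% in the 5' polyphosphatase library, and 39.1% and 25.9% in the spermatogonia replicates. To give a level, the reads of an RNA were divided by the 5.8S rRNA reads of its library and multiplied by 1000000 (RPM), with exact 95% Poisson intervals. Because the denominator itself moved, ratios are also given per listed read. Each read is an insert with both its ends, so counts were not divided by length. The reads have no molecular identifiers, and all intervals cover counting error only. With 1 library per testis treatment there is no replicate check, and ratios compare these libraries. Between the 2 spermatogonia replicates, levels in RPM differed 4.27 times for 5S rRNA and 2.17 times for Y1, beyond counting error. Intervals that do not overlap therefore do not show a difference between treatments.

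7SK was read in every testis library and was higher after each enzyme. It had 562 reads without enzyme, a level of 1778 RPM (1634 to 1931), 3276 reads after TAP, a level of 6112 RPM (5904 to 6325), and 845 reads after 5' polyphosphatase, a level of 4063 RPM (3793 to 4346). The 3 intervals do not overlap, with the TAP library highest and the untreated library lowest. Among the names of each library ordered by reads, 7SK stood at place 84 in the untreated, 18 in the TAP and 70 in the 5' polyphosphatase library.

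Y1 was scarce without enzyme and higher after both. It had 7 reads in the untreated library, a level of 22.1 RPM (8.90 to 45.6), where 3 reads, the upper limit that a count of 0 allows, stand for 9.49 RPM. After TAP it had 51 reads, a level of 95.1 RPM (70.8 to 125), and after 5' polyphosphatase 34 reads, a level of 163 RPM (113 to 228). Both treated libraries were above the interval of the untreated library, while their own intervals overlapped.

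Y3 did not follow Y1. It had 37 reads in the untreated library, a level of 117 RPM (82.4 to 161), 38 reads after TAP, a level of 70.9 RPM (50.2 to 97.3), and 59 reads after 5' polyphosphatase, a level of 284 RPM (216 to 366). The untreated and TAP intervals overlapped, and the 5' polyphosphatase library was above both. Thus Y3 was the more frequent Y RNA among reads that needed no enzyme.

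**Figure D2:**
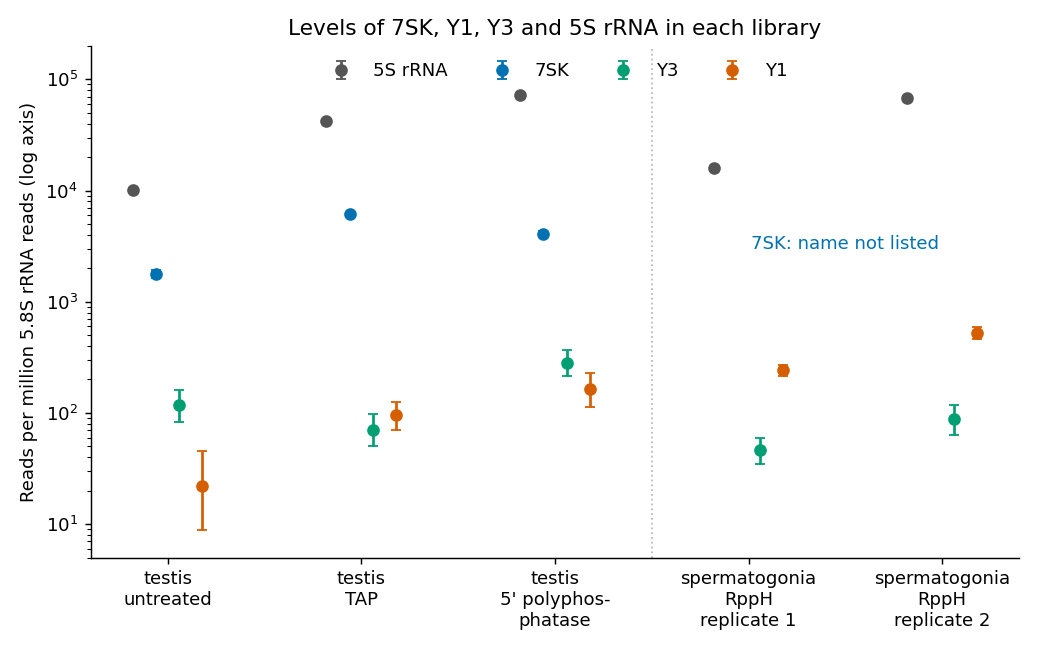
Level of 5S rRNA, 7SK, Y3 and Y1 (points) in each of the 5 libraries, in RPM on a log axis, with exact 95% Poisson intervals that are in part smaller than the points. Y1 is below Y3 in the untreated library (22.1 against 117 RPM) and above it in both spermatogonia libraries, and 7SK is listed for testis only.

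TAP was compared with no enzyme to see which members gained reads when caps and triphosphates were opened. The level of 7SK was 3.44 times (exact 95% interval 3.14 to 3.77) and that of Y1 4.30 times (1.94 to 11.2) the untreated level. That of 5S rRNA was 4.14 times (3.99 to 4.30) the untreated level. For this last RNA the study reports a clearly larger gain after TAP under the same kind of normalization. Why the values differ was not tested. The ratio of Y3 was 0.606 (0.375 to 0.979). Per listed read the ratios were 6.34 for 7SK (5.79 to 6.94), 7.92 for Y1 (3.58 to 20.7), 7.63 for 5S rRNA (7.35 to 7.92) and 1.12 for Y3 (0.691 to 1.81), so that the direction of Y3 turned with the denominator. Of the 250 names with at least 20 reads over both libraries and a read in each, 62 (24.8%) were at least 2-fold higher after TAP, and 2 of the 3 members were among them. The median ratio of these names was 0.469, and 43 names were above 7SK, 37 above Y1 and 109 above Y3.

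5' polyphosphatase was compared with no enzyme to see which members gained reads when only triphosphates were opened. All 3 members were at least 2-fold higher, as were 92 of 251 names (36.7%). Y1 was at 7.38 times the untreated level (exact 95% interval 3.22 to 19.7), close to the 7.18 times (6.91 to 7.46) of 5S rRNA. Y3 was 2.42 times (1.58 to 3.76) and 7SK 2.29 times (2.05 to 2.55) the untreated level. Per listed read the ratios were lower, with 5.21 for Y1 (2.28 to 13.9), 1.71 for Y3 (1.12 to 2.66) and 1.61 for 7SK (1.45 to 1.80), and neither Y3 nor 7SK then reached 2-fold. The median of all names was 1.66 per 5.8S rRNA read.

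Set against each other, the enzymes gave opposite orders for 7SK and the Y RNAs. The level of 7SK after TAP was 1.50 times (1.39 to 1.62) that after 5' polyphosphatase, whereas the ratio was 0.582 (0.370 to 0.926) for Y1 and 0.250 (0.162 to 0.382) for Y3, beside 0.577 (0.565 to 0.589) for 5S rRNA. Of 273 names, only 16 (5.86%) were at least 2-fold higher after TAP, which none of the members was, and 201 (73.6%) were at least 2-fold lower, among them Y3. 7SK stood at place 20 from the highest of the 273 names, where the median was 0.287. Per listed read the ratio was 3.93 for 7SK (3.64 to 4.24), 1.52 for Y1 (0.965 to 2.42) and 0.652 for Y3 (0.422 to 0.997), so that the direction turned for Y1 and not for 7SK or Y3.

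**Figure D3:**
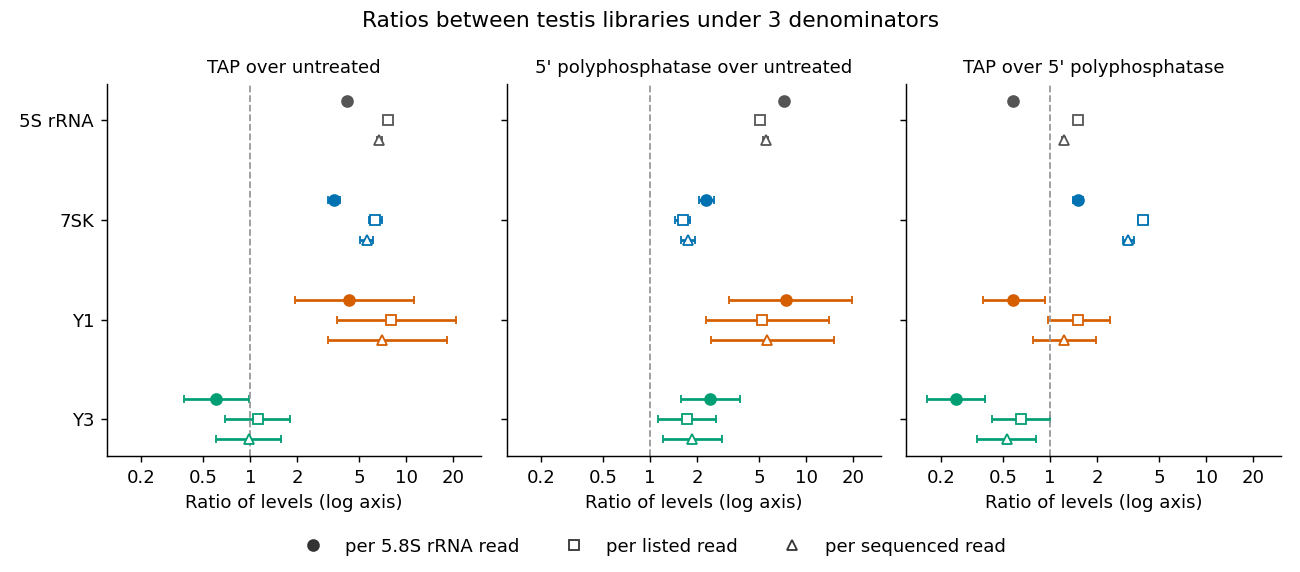
Ratio of levels between testis libraries (x axis, log scale) for 5S rRNA, 7SK, Y1 and Y3, per 5.8S rRNA read (filled circles), per listed read (squares) and per sequenced read (triangles), with exact 95% intervals from the read counts. Y1 lies beside 5S rRNA in each panel, Y3 lies to the left of both, and 7SK is above 1 in all 3 panels under each denominator.

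The comparison with 5S rRNA needs no denominator, because both counts come from the same library. For every 1000 5S rRNA reads, Y1 had 2.19 reads in the untreated, 2.28 in the TAP and 2.25 in the 5' polyphosphatase library. Its change relative to 5S rRNA was 1.04 after TAP (95% interval from the log ratio 0.471 to 2.29) and 1.03 after 5' polyphosphatase (0.456 to 2.32). The 7 untreated reads leave these intervals wide, so that a difference from 5S rRNA of up to about this size in either direction would not have been detectable at this depth.

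Y3 was lower relative to 5S rRNA under both enzymes, with 11.6 reads per 1000 5S rRNA reads in the untreated library against 1.70 with TAP and 3.91 with 5' polyphosphatase. The ratios were 0.146 (0.0929 to 0.230) and 0.338 (0.223 to 0.510). 7SK had 176, 146 and 56.0 reads per 1000 5S rRNA reads in the untreated, TAP and 5' polyphosphatase libraries. It thus kept near to 5S rRNA under TAP, at 0.830 (0.754 to 0.915), and lagged behind it under 5' polyphosphatase, at 0.318 (0.284 to 0.357). These ratios depend on the reference. With all tRNA reads in place of 5S rRNA, 7SK was at 4.16 after TAP and 1.18 after 5' polyphosphatase. Y1 was then at 5.20 and 3.82, and Y3 at 0.732 and 1.25.

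Other Pol III transcripts were set beside the members, whatever 5' end they carry. The list was 5S rRNA, U6 snRNA, all tRNA names, BC1 and the B1 and B2 subfamilies, and no name for 7SL or 4.5S RNA was listed. After TAP, 34 of the 69 list members with enough reads were at least 2-fold higher and 7 at least 2-fold lower, with a median ratio of 1.97. Of all names, 24.8% were at least 2-fold higher, with a median of 0.469. After 5' polyphosphatase, 55 of 73 were at least 2-fold higher and 0 lower, with a median of 6.84, beside 36.7% higher and a median of 1.66 for all names. All 4 B2 subfamilies were at least 2-fold higher after each enzyme, and 25 of 56 tRNA names were so after TAP. These 56 tRNA names made up most of the 69 list members and held all 7 lower ones, so the list medians mainly reflect tRNA names. The tRNA names spread from 0.156 to 231 after TAP, and their 5' ends were not tested. The list medians thus give no typical value for a triphosphate end. Compared directly, 1 of 87 list members was at least 2-fold higher after TAP than after 5' polyphosphatase and 68 were at least 2-fold lower. Of all names, 5.86% were higher and 73.6% lower by this measure. The list median was 0.337, beside 0.287 for all names, and 0.881 per listed read, against 1.50 and 3.93 for 7SK. U6 snRNA, a Pol III transcript that like 7SK is known to be methylated on its outermost phosphate, had 39, 84 and 91 reads in the untreated, TAP and 5' polyphosphatase libraries, and a ratio of TAP to 5' polyphosphatase of 0.358 (0.263 to 0.487). Per listed read this ratio was 0.935 (0.687 to 1.27), an interval that includes 1.

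The capped Pol II snRNAs U1, U4, U5 and U7 were read for the opposite case, a 5' end that 5' polyphosphatase leaves closed. Of their 5 names, 4 were at least 2-fold higher after TAP than in each of the other libraries, and 0 were at least 2-fold higher after 5' polyphosphatase than without enzyme. For all names these shares were 24.8% (TAP to untreated), 5.86% (TAP to 5' polyphosphatase) and 36.7% (5' polyphosphatase to untreated). U5 was at 24.6 times the untreated level after TAP and at 0.896 after 5' polyphosphatase, and U1 was at 7.21 and 1.84. U4 was the exception, at 1.15 and 0.897, but per listed read it too passed 2-fold after TAP, at 2.13 (1.94 to 2.34). In the ratio of TAP to 5' polyphosphatase, 7SK at 1.50 lay above 5S rRNA at 0.577 and U4 at 1.29, and below U1 at 3.92 (3.50 to 4.41). Per listed read U4 was at 3.36 (2.99 to 3.78), and 7SK at 3.93.

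**Figure D4:**
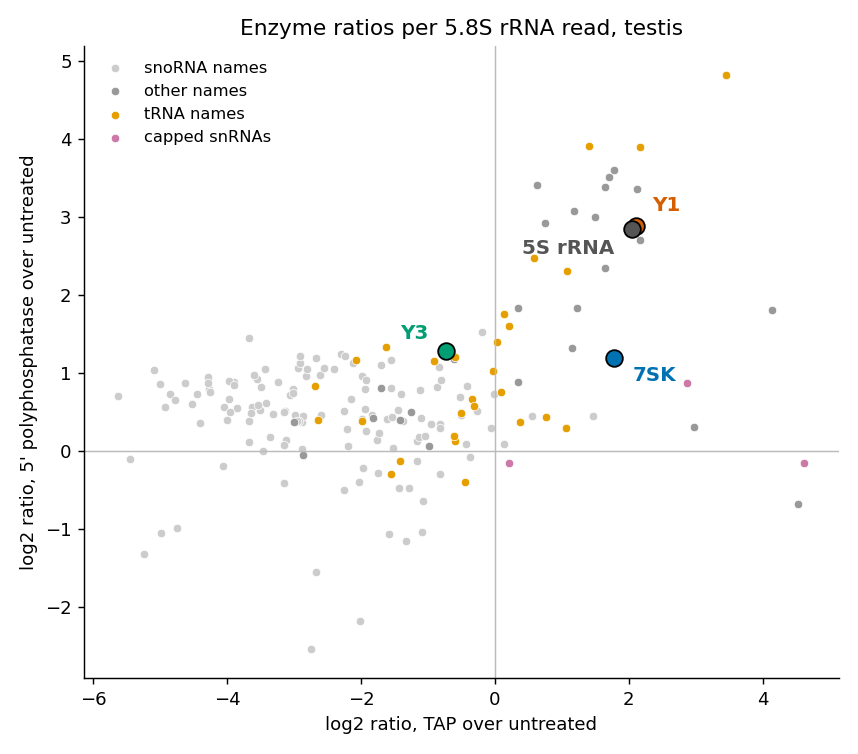
log2 ratio of TAP to untreated (x axis) against log2 ratio of 5' polyphosphatase to untreated (y axis), per 5.8S rRNA read, for the 189 names with at least 20 untreated reads and a read in each testis library, plus Y1, which has 7. Y1 and 5S rRNA fall on nearly the same place, 7SK lies lower at a like TAP ratio, and Y3 lies to the left of 0 among tRNA and snoRNA names.

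The names most like 7SK were sought by the distance between these log2 ratio pairs, over the 3 testis libraries and 189 names. They were the SINE monomer PB1 (distance 0.645), the H/ACA snoRNA SNORA64 (0.813), the row snRNA_nuclear (0.856), whose name does not identify an RNA, U1a1 snRNA (1.14) and the selenocysteine tRNA (1.15). 5S rRNA was at place 16, at a distance of 1.67. For the summed reads of Y1 and Y3 the nearest were a glycine tRNA (GCC, 0.0924), an alanine tRNA (CGC, 0.140), U6 snRNA (0.169), another glycine tRNA (TCC, 0.361) and SNORA18 (0.475), and 5S rRNA was at place 63. These 5 nearest names had between 22 and 49 untreated reads, and the counting error of the distances was not tested. The ratio of the Y1 and Y3 sum after TAP was 1.19 (0.822 to 1.75), between the 4.30 of Y1 and the 0.606 of Y3. The nearest names thus describe the sum and not Y1 or Y3 alone.

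The split between Y1 and Y3 is a share within each library and does not depend on a denominator. Y1 is 3 nt and Y3 13 nt short of the shortest selected insert, and the part of the gel cut in this share was not tested. Y1 gave 7 of 44 Y RNA reads without enzyme, which is 15.9% (exact Clopper-Pearson 95% interval 6.64% to 30.1%). It gave 51 of 89 after TAP, or 57.3% (46.4% to 67.7%), and 34 of 93 after 5' polyphosphatase, or 36.6% (26.8% to 47.2%). The interval of the TAP library does not overlap that of the untreated library, while the 5' polyphosphatase library overlaps both. The reads of Y1 relative to Y3 were 7.09 times (2.85 to 17.6) higher after TAP and 3.05 times (1.22 to 7.58) higher after 5' polyphosphatase than without enzyme. They were 2.33 times (1.28 to 4.22) higher after TAP than after 5' polyphosphatase.

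In spermatogonia, Y1 gave 300 of 357 Y RNA reads in replicate 1, or 84.0% (79.8% to 87.7%), and 271 of 316 in replicate 2, or 85.8% (81.4% to 89.4%). The mean was 84.9% ± 1.22 (SD, n = 2), and both intervals lie above that of each testis library. Tissue, enzyme and library kit (NEBNext in place of TruSeq, by the study's methods) differ together between these libraries, so their parts in the split cannot be told apart. The methods give no insert range for spermatogonia, and the part of the gel cut was not tested here either.

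**Figure D5:**
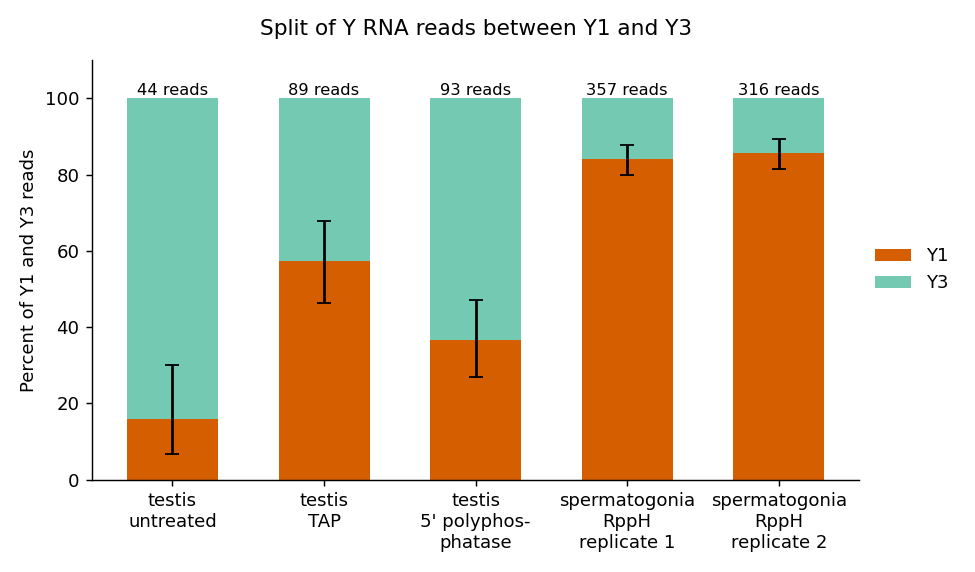
Percent of the Y1 and Y3 reads that belong to Y1 (lower bars) and Y3 (upper bars) in each of the 5 libraries, with exact Clopper-Pearson 95% intervals for Y1 and the number of reads above each bar. The share of Y1 is 15.9% without enzyme and 84.0% and 85.8% in spermatogonia.

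The level of Y1 in spermatogonia was 243 RPM in replicate 1 and 526 RPM in replicate 2, a mean of 384 ± 200.2 RPM (SD, n = 2). That of Y3 was 46.1 and 87.3 RPM, a mean of 66.7 ± 29.1 RPM (SD, n = 2). Replicate 2 was thus 2.17 times (1.83 to 2.56) higher for Y1 and 1.89 times (1.25 to 2.85) higher for Y3. Per listed read these ratios were 1.44 (1.21 to 1.70) and 1.25 (0.829 to 1.89). 5S rRNA differed more between the replicates, at 4.27 times per 5.8S rRNA read and 2.83 times per listed read. Y1 consequently had 15.1 reads per 1000 5S rRNA reads in replicate 1 and 7.69 in replicate 2, and Y3 had 2.88 and 1.28.

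Set beside the TAP library of testis, Y1 was 2.55 times (1.89 to 3.50) higher in replicate 1 and 5.52 times (4.08 to 7.60) higher in replicate 2, and per listed read 1.98 and 2.85 times higher. Of 326 names compared, 175 (53.7%) were at least 2-fold higher in both replicates, Y1 among them and Y3 not. Y3 was at 0.650 (0.424 to 1.01) and 1.23 (0.782 to 1.95), on different sides of 1 in the replicates, and at 0.506 and 0.634 per listed read. No test between the tissues was made, since testis has 1 TAP library. In whole testis, fewer cells of a type and less RNA per cell cannot be told apart.

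7SK has no level in spermatogonia. Of the 18 names that begin with scRNA or snRNA in the testis tables, 9 are not listed for spermatogonia, 7SK and scRNA_embryo among them, and 7 of these 9 had at least 100 reads after TAP. All snRNA names with a U number are listed in both. The unlisted names are the descriptive ones, and whether reads of 7SK were counted under another name or left unassigned in spermatogonia was not tested.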

How the data were processed

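The counts of 3 testis and 2 spermatogonia libraries are those the authors deposited, raw reads per repeat or RNA name. The authors trimmed adaptors with Cutadapt, dropped reads without one and assigned the rest with RepeatMasker. Versions, repeat library and build are not given in the sources used here. Totals, blank lines and 1 line without a count in each of 2 testis tables were left out, and the spelling of B2 names was matched between tables.

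Reads were divided by 5.8S rRNA reads as in the study, and as alternatives by listed reads and by sequenced reads from the study's statistics. Ratio intervals came from the conditional binomial distribution with denominators taken as fixed, and those relative to 5S rRNA from the log ratio of 4 counts. Names with at least 20 reads over both libraries and 1 in each were compared, with no test. In simulated untreated and TAP counts, the intervals held the true ratio for 98.4% of 125 names changed 4-fold and 95.2% of 125 unchanged names. The simulated counts held counting error only, so this checks the calculation and not the spread between real libraries. The spermatogonia replicates, biological by the study's methods, differed by more than counting noise (chi-square 496 times its 512 degrees of freedom, over 513 names).

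The members and lists were chosen with earlier results of these data known. Named were the members, 5S and 5.8S rRNA, the other scRNA names, BC1 and the Pol III and capped snRNA lists. The 5 names nearest to 7SK and to the sum of Y1 and Y3 were named too. HY1 and HY3 were added after their values were seen. Sequences and positions came from GENCODE M21 (GRCm38), matched by symbol for all 3 members, and 5S rRNA lengths from RefSeq. The labels and the study's methods give different amounts of RNA for spermatogonia. Python 3.11.15, numpy 2.4.6, scipy 1.17.1, matplotlib 3.10.9, Biopython 1.88 and blastn 2.17.0 were used.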

Additional observations from a re-analysis of the deposited data

How the results depend on the processing

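Of 76 alternative values, 25 moved and 7 turned direction. The others include values that could not move by construction, with another interval method or with 1 of 2 replicates left out, so their number does not measure stability. Per listed and per sequenced read, 7SK gave 6.34 and 5.55 for TAP to untreated, 1.61 and 1.75 for 5' polyphosphatase to untreated, and 3.93 and 3.18 for TAP to 5' polyphosphatase, and per 5S rRNA read the last was 2.61. For TAP to 5' polyphosphatase, Y1 gave 1.52 and 1.23, and 1.01 per 5S rRNA read, all with intervals that include 1. Y3 gave 0.652, 0.528 and 0.433. Y3 for TAP to untreated gave 1.12 (0.691 to 1.81) per listed read. The sum of Y1 and Y3 gave 2.20 and 1.93 for TAP to untreated, and 0.969 and 0.785 for TAP to 5' polyphosphatase. These shifts follow from the construction of the ratios, as the share of 5.8S rRNA among listed reads was 1.84 times higher after TAP and 0.706 times as high after 5' polyphosphatase. With all tRNA reads as the reference in place of 5S rRNA, the ratios after TAP and 5' polyphosphatase were 4.16 and 1.18 for 7SK. They were 5.20 and 3.82 for Y1, and 0.732 and 1.25 for Y3. Thus 7SK turned under both enzymes, and Y3 under 5' polyphosphatase with an interval of 0.831 to 1.89. The tRNA reads themselves were at only 0.827 and 1.93 times the untreated level per 5.8S rRNA read, unlike 5S rRNA. In spermatogonia, levels per 1000000 listed reads were 115 for Y1 and 20.3 for Y3, and Y3 was at 0.235 of the 5' polyphosphatase library. With either replicate left out, Y1 ranged from 2.55 to 5.52 and Y3 from 0.650 to 1.23 times the TAP library, and the Y1 share from 84.0% to 85.8%. With any name that had a read in each library, 103, 149 and 33 names were at least 2-fold higher for TAP and 5' polyphosphatase over untreated and for TAP over 5' polyphosphatase. For the last, at least 10 reads gave 25. Per listed read the numbers were 82, 62 and 42, so that more names were higher after TAP than after 5' polyphosphatase, the opposite order to 62 and 92 per 5.8S rRNA read. Adding the HY rows, and dividing TAP to 5' polyphosphatase ratios by 5S rRNA reads, were chosen after seeing the data. The untreated Y1 count of 7 reads limits the ratios of Y1 to the untreated library. 7SK has no spermatogonia value under any setting. No paired analysis was possible because each testis treatment has 1 library and only the spermatogonia libraries carry replicate numbers.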

Other observations

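Other rows of the same class behaved in further ways. The row scRNA_embryo, whose name does not identify the RNA, had 39 reads without enzyme, 1160 with TAP and 90 with 5' polyphosphatase, ratios of 17.5 (exact 95% interval 12.8 to 24.8) and 3.51 (2.38 to 5.25) to the untreated library. Its ratio of TAP to 5' polyphosphatase was 5.00 (4.03 to 6.27), above the 1.50 of 7SK. scRNA_proteasome-associated was listed only after 5' polyphosphatase, with 3 reads. BC1, a Pol III transcript of rodent neurons, had 4 reads after TAP and 6 after 5' polyphosphatase. HY1 and HY3, repeat names derived from Y RNA genes, are listed apart from scRNA_Y1 and scRNA_Y3. HY3 had 4, 5 and 2 reads in the untreated, TAP and 5' polyphosphatase libraries, and HY1 had 1 read without enzyme.

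U6 snRNA, which in testis was near the summed reads of Y1 and Y3 by its enzyme ratios, had 84 reads after TAP. In the spermatogonia replicates it had 11044 and 11183 reads, levels of 8928 and 21689 RPM. These were 57.0 and 138 times its level in the TAP library, against 2.55 and 5.52 times for Y1. Tissue, enzyme and library kit differ together in this comparison and cannot be told apart. The part of the gel cut was not tested.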
